A study of Mus musculus with 48 samples.

Results

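The 10 genes described here are markers of the brain vasculature: Cldn5, Cdh5, Pecam1, Slc2a1, Mfsd2a, Abcb1a, Flt1 and Kdr of endothelial cells, and Pdgfrb and Kcnj8 of pericytes. They were chosen by symbol as known vascular genes from tables of RNA sequencing of whole mouse cortex. All 10 were found among the 54100 genes of the table for postnatal day 1, 7, 14 and 45 (P1, P7, P14 and P45) and among the 55401 genes of the P21 table, and 6 of 10 among the 48785 genes of the table of CT and VPA samples at P1. The CT and VPA table listed no row for Cldn5, Kdr, Pdgfrb and Slc2a1.

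Brain capillaries form the blood-brain barrier, in which tight junctions seal the gaps between endothelial cells and membrane transporters decide what crosses them. Vessels grow into the cortex before birth and go on sprouting for weeks after it, steered by vascular endothelial growth factor (VEGF) and its receptors, and pericytes attach to them from outside. Because the barrier matures while the vascular bed is still growing, junction, transport and growth genes need not follow one course with age.

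The age table compared mG-cKO with Ctrl cortex, with 3 libraries of each at P1 and at P45 and 2 of each at P7 and at P14. The P21 table held 3 libraries each of mG-cKO with RTI, mG-cKO, mG-cKD with RTI, mG-cKD and Ctrl cortex, and the CT and VPA data were 3 VPA and 3 CT libraries at P1. The labels do not name the altered gene, its promoter or Cre line, the agents RTI and VPA, or what the groups share, so the targeted gene could not be checked. FPKM is the number of fragments per kilobase of gene, scaled by the mapped fragments of the library. Whole-cortex FPKM cannot tell fewer vascular cells from less RNA per cell.

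Libraries differed in ways that the groups do not explain. In 16 libraries of the age table and 5 of the CT and VPA table, 98.6% to 99.2% of low values came in steps of 1 read, within 0.05 of a whole read, which put their depth at 13540000 to 30940000 reads. Replicate 3 at P1 and P45, VPA replicate 3 and all P21 libraries had no such steps (11.6% to 22.4%), so their depth is unknown. In the stepped libraries of the age table a member had 41 reads (Kcnj8) to 2073 reads (Cldn5). Replicate 3 of both genotypes at P1 and P45 also had FPKM sums of 364520 to 381834, against 238106 to 258920 in the other 16 libraries. Replicates 1 and 2 at P45 held 18350 to 21130 FPKM of Rn7sk, an abundant nuclear RNA, against 0.625 to 72.8 FPKM in every other library of that table. They also had 19052 to 19137 genes at 1 FPKM or more, against 14088 to 14501 in every other library of that table. Genes were kept by their mean over all libraries of a table, so some can pass through these libraries alone. The shares of all genes called in that table can include such genes. Results over age are therefore also given for replicates 1 and 2 and for the replicate 3 pair on their own. This split does not remove the differences in Rn7sk and in genes detected. Within replicates 1 and 2, P45 and library kind cannot be told apart.

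Flt1 and Kdr encode the paired VEGF receptors VEGFR1 and VEGFR2, and they moved in opposite directions with age, so the 250 bases before their starts are shown here from RefSeq (GRCm38.p6). RefSeq promoter windows were matched for 7 of 10 genes. Both genes lie on the minus strand of chromosome 5, Kdr with its window at chr5:75978456-75978705 and Flt1 at chr5:147726012-147726261. Capitals mark GGAA on either strand (TTCC where it lies on the other), the core read by ETS transcription factors, which are prominent in endothelium.
Kdr: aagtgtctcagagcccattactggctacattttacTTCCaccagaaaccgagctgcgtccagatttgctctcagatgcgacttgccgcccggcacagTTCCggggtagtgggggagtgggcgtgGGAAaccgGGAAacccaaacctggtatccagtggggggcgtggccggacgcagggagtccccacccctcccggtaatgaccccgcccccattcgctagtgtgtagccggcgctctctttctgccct
Flt1: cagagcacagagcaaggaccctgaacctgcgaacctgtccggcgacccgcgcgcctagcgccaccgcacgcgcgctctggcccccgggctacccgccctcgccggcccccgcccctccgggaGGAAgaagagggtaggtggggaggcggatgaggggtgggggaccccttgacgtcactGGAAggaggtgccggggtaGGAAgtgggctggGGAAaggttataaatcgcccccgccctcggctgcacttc
Each window held 4 matches, with a median of 3 matches over 32851 promoter windows of the same length, 93.4% of which held at least 1. Among the other matched windows Cldn5, Slc2a1 and Kcnj8 held 0 matches and Mfsd2a 2. Abcb1a had 5, in a window before its RefSeq start (chr5:8566841-8567090), which is not the GENCODE start given below. The motif ACGTG, searched on both strands as a core read by hypoxia-inducible factors, was in 16.6% of all windows and had 2 matches in that of Mfsd2a, 1 in that of Slc2a1 and 0 in the other 5. These matches describe the letters only.

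In newborn Ctrl cortex the tight junction gene Cldn5 was the most abundant of the 10 per unit of length, with 35.7 ± 8.6 FPKM (SD, n = 3), followed by the glucose transporter Slc2a1 with 13.2 ± 2.0 FPKM and the lipid transporter Mfsd2a with 11.6 ± 1.5 FPKM, whose libraries overlapped. Cdh5, Pdgfrb and Kdr averaged 7.11 ± 1.3, 7.02 ± 1.1 and 5.95 ± 0.79 FPKM and their libraries overlapped. Pecam1, Flt1, Abcb1a and Kcnj8 followed with 4.06 ± 1.1, 2.77 ± 0.93, 2.40 ± 0.57 and 2.16 ± 0.36 FPKM, and among these 4 each overlapped with the next. At P45 the order had changed, with Slc2a1 first (23.6 ± 7.0 FPKM), followed by Cldn5 (15.7 ± 3.7) and Flt1 (7.80 ± 2.7). Mfsd2a averaged 7.78 ± 1.5 FPKM, and it lay above Flt1 in replicates 1 and 2 and below it in replicate 3, so the order of these genes rests on that library. Slc2a1 and Cldn5 overlapped there, the lowest Slc2a1 value being 18.2 and the highest Cldn5 value 19.0 FPKM.

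The genes were first compared between ages, in each genotype. Between P45 and P1 in Ctrl cortex 3 genes rose and 5 fell of 10, where 36.6% of the 19733 genes tested were called, 17.2% as higher and 19.4% as lower (limma on log2 of FPKM + 1, Benjamini-Hochberg adjusted p under 0.05). In mG-cKO cortex 3 rose and 4 fell, where 34% of genes were called, 16.3% as higher and 17.7% as lower. The median difference of the 10 was -0.38 in Ctrl, beside 0.04 over all genes, and -0.27 in mG-cKO, beside 0.06. The rising genes were Flt1, Abcb1a and Slc2a1, and the falling ones Cldn5, Kdr, Cdh5, Kcnj8 and, in Ctrl, Mfsd2a.

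**Figure D1:**
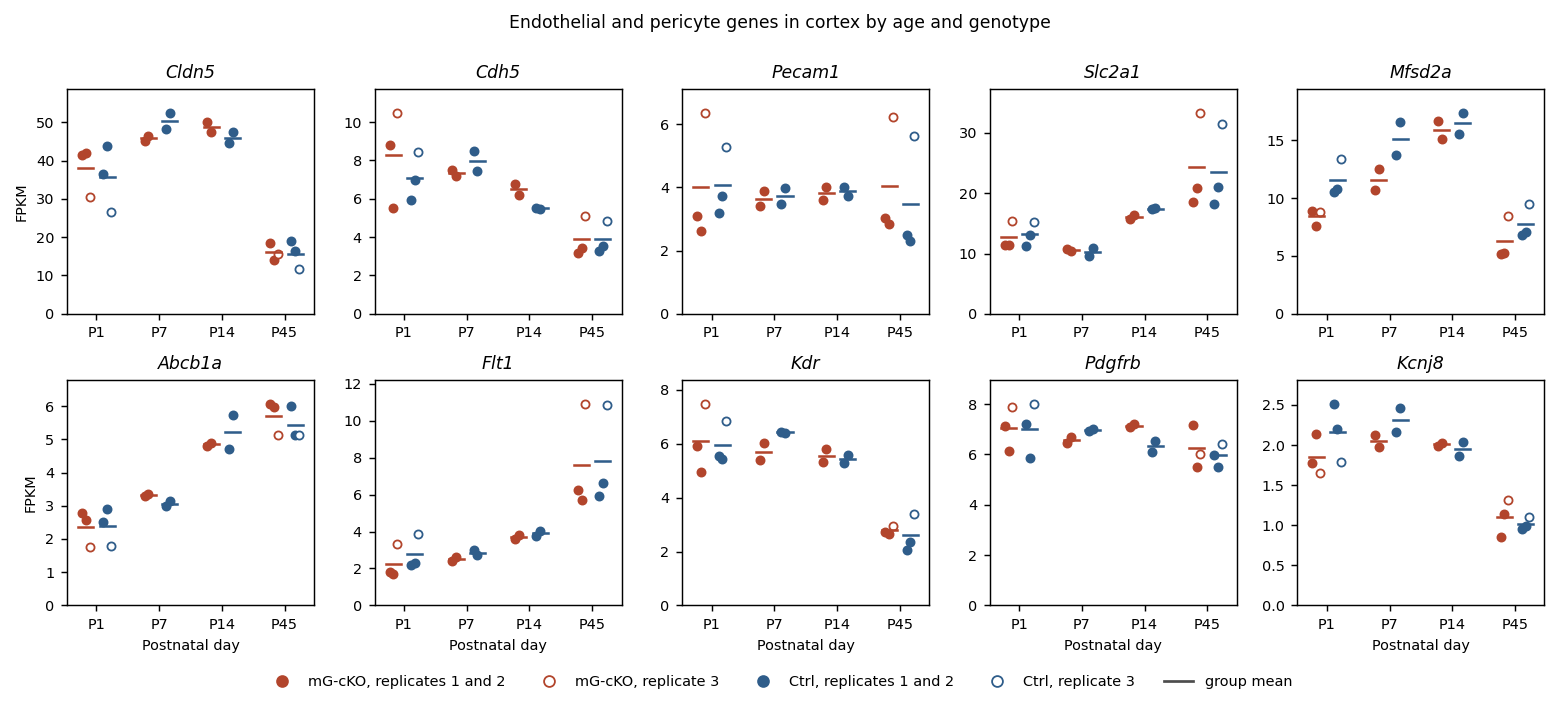
Level of each of the 10 genes (FPKM, linear axes starting at 0) in every library of the age table by postnatal day, with mG-cKO left of Ctrl and bars at group means. Open circles are replicate 3, which had higher FPKM sums. In Ctrl, Cldn5 sits at 44.5 to 52.5 FPKM at P7 and P14 and at 11.7 to 19.0 FPKM at P45, while Flt1 sits at 5.92 to 10.8 FPKM at P45.

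Cldn5 (chr16:18776847-18778262, plus strand) encodes claudin-5, the main strand-forming protein of endothelial tight junctions. It had 19.0, 16.3 and 11.7 FPKM in Ctrl at P45, against 36.6, 43.8 and 26.6 FPKM at P1, and 18.5, 14.2 and 15.6 FPKM in mG-cKO at P45, against 41.4, 42.0 and 30.5 FPKM at P1. No P45 library reached the lowest P1 library in either genotype. The log2 difference was -1.13 ± 0.19 (SE) in Ctrl (limma, adjusted p = 0.000352) and -1.18 ± 0.19 in mG-cKO (adjusted p = 0.000263).

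Cdh5 (chr8:104101625-104144511, plus strand) encodes VE-cadherin of endothelial adherens junctions. Its 3 Ctrl libraries had 3.25, 3.56 and 4.85 FPKM at P45, against 5.92, 7.0 and 8.42 FPKM at P1, and the 3 mG-cKO libraries 3.15, 3.46 and 5.1 FPKM at P45, against 8.8, 5.54 and 10.5 FPKM at P1. Neither genotype's ages overlapped. The difference was -0.73 ± 0.20 on the log2 scale in Ctrl (limma, adjusted p = 0.0113) and -0.90 ± 0.20 in mG-cKO (adjusted p = 0.0031). Without the first P45 Ctrl library the Ctrl call was lost (adjusted p = 0.0516).

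Pecam1 (chr11:106654217-106750628, minus strand), the adhesion molecule CD31, had 2.5, 2.29 and 5.62 FPKM in Ctrl at P45, against 3.19, 3.73 and 5.26 FPKM at P1. Replicate 3 was the highest library of each group, by 1.52 to 2.35 times over the mean of replicates 1 and 2. The difference in Ctrl was -0.23 ± 0.31 over all libraries (limma, adjusted p = 0.584, 95% interval -0.91 to 0.44). Without replicate 3 it was -0.39 with adjusted p = 0.00252, in a fit where 77.9% of all genes were called. In mG-cKO it was 0.01 ± 0.31 (adjusted p = 0.98).

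Slc2a1 (chr4:119108711-119137983, plus strand) encodes GLUT1, through which glucose enters the brain. It had 18.2, 21.1 and 31.4 FPKM in Ctrl at P45, against 11.2, 13.2 and 15.2 FPKM at P1, and 18.6, 20.9 and 33.4 FPKM in mG-cKO at P45, against 11.5, 11.4 and 15.4 FPKM at P1. The groups did not overlap. The log2 rise was 0.77 ± 0.22 in Ctrl (limma, adjusted p = 0.0129) and 0.84 ± 0.22 in mG-cKO (adjusted p = 0.00755). Without the first P1 Ctrl library the Ctrl value was 0.66 with adjusted p = 0.0577.

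Mfsd2a (chr4:122946850-122961188, minus strand) encodes the transporter of docosahexaenoic acid that also restrains vesicle traffic across brain endothelium. In Ctrl it had 10.6, 10.8 and 13.4 FPKM at P1, 13.7 and 16.5 FPKM at P7, 15.6 and 17.4 FPKM at P14, and 6.80, 7.07 and 9.46 FPKM at P45. It was thus highest in the middle of the course and lowest at its end. P45 lay below P1 by -0.53 ± 0.17 in Ctrl (limma, adjusted p = 0.0253), a call lost without P45 replicate 1 or 2 or without P1 replicate 3 (adjusted p = 0.0894 to 0.1). In mG-cKO it had 5.19, 5.27 and 8.42 FPKM at P45, against 8.9, 7.6 and 8.77 FPKM at P1, which overlapped, and the difference was -0.40 ± 0.17 (adjusted p = 0.0764). It was called with the replicate number as a block (adjusted p = 0.00559), on a common FPKM sum or median (0.0304 and 0.0201) and without replicate 3 (-0.57, adjusted p = 0.000323). Of all genes 69.3% were called under the block, 34.8% on the common sum, 34.2% on the common median and 77.1% without replicate 3.

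Abcb1a (chr5:8660077-8748575, plus strand) encodes P-glycoprotein, which pumps drugs back into the blood, and shares long stretches of sequence with its neighbour Abcb1b, so reads can be split between them. It had 6.0, 5.14 and 5.13 FPKM in Ctrl at P45, against 2.5, 2.91 and 1.78 FPKM at P1. All P45 libraries of both genotypes lay above all P1 libraries. The difference was 0.93 ± 0.14 in Ctrl (limma, adjusted p = 0.000116) and 1.01 ± 0.14 in mG-cKO (adjusted p = 6.26e-05).

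Flt1 (chr5:147561604-147726011, minus strand) encodes VEGFR1, which binds VEGF tightly and, in its soluble form, keeps it from VEGFR2. It had 5.92, 6.65 and 10.8 FPKM in Ctrl at P45, against 2.18, 2.28 and 3.84 FPKM at P1, and 6.25, 5.68 and 10.9 FPKM in mG-cKO at P45, against 1.79, 1.69 and 3.31 FPKM at P1. Ages did not overlap in either genotype. The rise was 1.21 ± 0.26 in Ctrl (limma, adjusted p = 0.00196) and 1.38 ± 0.26 in mG-cKO (adjusted p = 0.000751).

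Kdr (chr5:75932827-75978458, minus strand) encodes VEGFR2, the receptor that drives sprouting. It had 2.07, 2.37 and 3.38 FPKM in Ctrl at P45, against 5.56, 5.44 and 6.86 FPKM at P1, and 2.74, 2.65 and 2.96 FPKM in mG-cKO at P45, against 5.90, 4.97 and 7.46 FPKM at P1. Its fall was -0.96 ± 0.14 in Ctrl (limma, adjusted p = 0.000112) and -0.90 ± 0.14 in mG-cKO (adjusted p = 0.000218). The values thus moved apart for the paired receptors, without overlap of ages in either gene.

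Of the pericyte genes, Kcnj8 (chr6:142564837-142571614, minus strand), a subunit of ATP-sensitive potassium channels, had 0.957, 0.989 and 1.11 FPKM in Ctrl at P45, against 2.51, 2.20 and 1.78 FPKM at P1. The ages did not overlap in either genotype. Its difference was -0.64 ± 0.11 in Ctrl (limma, adjusted p = 0.000431) and -0.44 ± 0.11 in mG-cKO (adjusted p = 0.00717, and 0.0655 on a common FPKM sum). Pdgfrb (chr18:61045150-61085061, plus strand), the receptor through which endothelial PDGF-B recruits pericytes, had 5.99, 5.51 and 6.43 FPKM in Ctrl at P45, against 7.20, 5.87 and 7.99 FPKM at P1. These ranges overlapped, and the difference was -0.19 ± 0.12 (limma, adjusted p = 0.203, 95% interval -0.45 to 0.06).

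Within replicates 1 and 2, and within the replicate 3 pair alone, 9 of 10 genes had a P45 minus P1 difference of the same sign in each genotype, Pecam1 being the exception. For Cldn5 in Ctrl these values were -1.14 and -1.12, and for Flt1 1.17 and 1.29. In replicates 1 and 2 age cannot be told apart from the differences in Rn7sk and in genes detected, and the replicate 3 pair holds 1 library per group. The change with age was called as different between genotypes for 0 of 10 genes, at an adjusted or an unadjusted p under 0.05, where 0.36% of all genes were called (limma). The difference of the changes, mG-cKO minus Ctrl, ranged from -0.17 (Cdh5) to 0.25 (Pecam1), with 95% intervals reaching from -0.78 to 1.2. On a common median the median gene in Ctrl lay at -0.12, against 0.04 as deposited, and the split of all called genes was 2382 higher and 4834 lower, against 3388 and 3833. On that scale 3 members rose and 6 fell in each genotype, Pdgfrb among them (-0.36 in Ctrl, limma adjusted p = 0.0231).

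**Figure D2:**
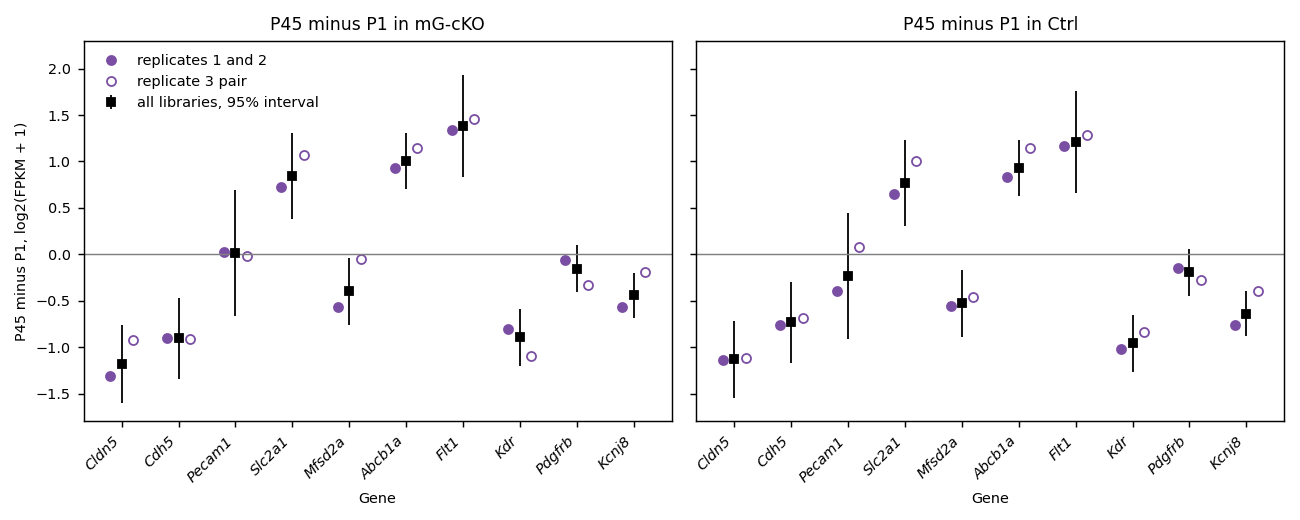
P45 minus P1 difference in log2(FPKM + 1) for each gene in mG-cKO (left) and Ctrl (right). Squares are the estimate over all libraries with its 95% interval, filled circles replicates 1 and 2, open circles the replicate 3 pair. Flt1, Abcb1a and Slc2a1 lie above 0 and Cldn5, Kdr and Cdh5 below 0 in both sets of libraries and both genotypes.

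The steps between ages were compared in Ctrl cortex. Between P7 and P1, 0 of 10 genes were called (6.24% of all genes), and Cldn5, the 1 gene with an unadjusted p under 0.05, had the largest difference, 0.51 ± 0.22 (limma, adjusted p = 0.219). Between P14 and P7 (8.57% of all genes called, 4.62% as higher) Abcb1a rose by 0.61 ± 0.17 (limma, adjusted p = 0.0412), with 4.72 and 5.74 FPKM at P14, against 2.99 and 3.15 FPKM at P7. That call was lost when any 1 of the 4 libraries was left out. Slc2a1 had 17.4 and 17.5 FPKM at P14, against 9.66 and 10.9 FPKM at P7, a difference of 0.71 ± 0.26 (adjusted p = 0.139).

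Between P45 and P14 (8.18% of all genes called, 4.63% as lower) 4 genes fell, Cldn5 with a difference of -1.52 ± 0.22, Mfsd2a -1.0 ± 0.19, Kdr -0.85 ± 0.16 and Kcnj8 -0.55 ± 0.13 (limma, adjusted p = 0.000841, 0.00497, 0.00507 and 0.0155). Cldn5 had 19.0, 16.3 and 11.7 FPKM at P45, against 44.5 and 47.3 FPKM at P14. The P45 libraries differed from those of P14 in Rn7sk and genes detected (replicates 1 and 2) or in read steps and FPKM sum (replicate 3). Age and library kind therefore cannot be told apart in this step. The number called was 2 without P14 replicate 1 and 1 without P14 replicate 2, and 7 without replicate 3 at P1 and P45, where 67.2% of all genes were called, when Cdh5 and Pecam1 were also lower and Flt1 higher. The median gene differed by 0.16 in this step as deposited and by -0.18 on a common median. As deposited, the median log2(FPKM + 1) of tested genes was 2.12 in both P14 Ctrl libraries. In P45 Ctrl it was 2.49, 2.5 and 2.37 in replicates 1, 2 and 3. All called genes split into 702 higher and 913 lower as deposited, and into 244 and 2755 on a common median, where 0 members rose and 6 fell.

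Because Flt1 and Kdr diverged, their ratio within each library was examined after these values had been seen. It was 0.304 to 0.560 at P1, 0.423 to 0.462 at P7, 0.655 to 0.720 at P14 and 2.14 to 3.68 at P45, over both genotypes. The P45 values lay above all values of the earlier ages, and the P45 libraries also differed in kind from those of P7 and P14. In the P21 table it was 1.66 to 3.01 in 14 libraries and 12.3 in replicate 1 of mG-cKD with RTI. In that library Kdr had 0.793 FPKM, the lowest of the 15, and Flt1 had 9.78 FPKM, the highest.

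**Figure D3:**
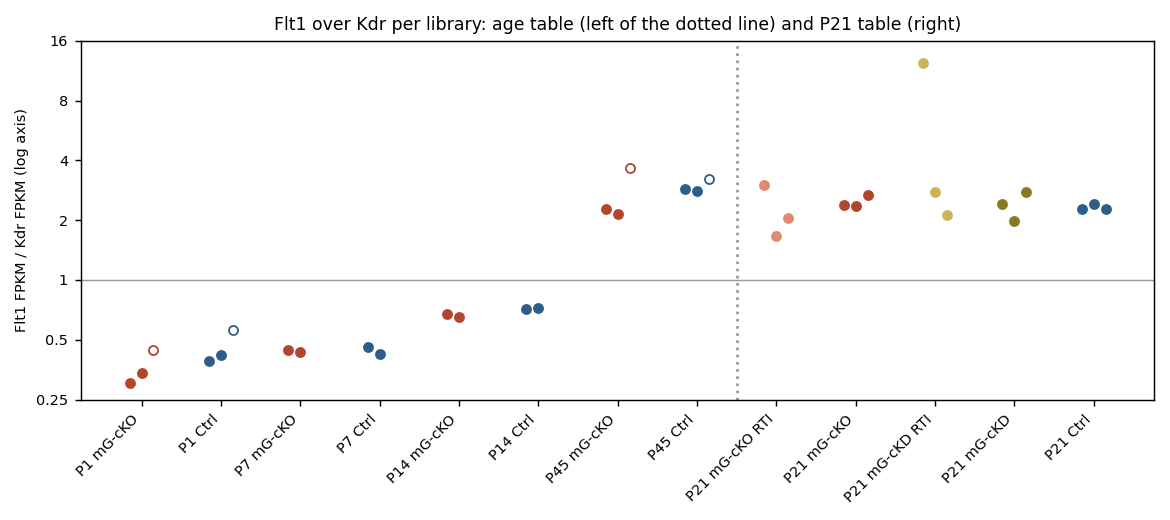
Flt1 FPKM divided by Kdr FPKM in each library (log axis), by group; open circles are replicate 3 of the age table and the dotted line separates the tables, which were normalised separately. Libraries at P1 to P14 lie at 0.304 to 0.720, below 1, and those at P45 and P21 at 1.66 or more.

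Lists of other vascular genes were counted beside the 17.2% of all genes called higher and 19.4% called lower between P45 and P1 in Ctrl. For junction, transcription factor, Wnt and further pericyte genes the share called was near that of all genes. Of 10 genes of the vascular basement membrane, the collagen IV and laminin sheet beneath endothelium and pericytes, 0 rose and 7 fell between P45 and P1 in each genotype, with a median of -0.77 in Ctrl beside 0.04 over all genes. Nid1, which links laminin to collagen IV, averaged 1.73 ± 0.11 FPKM in Ctrl at P45 and 8.85 ± 0.86 FPKM at P1 (SD, n = 3 each), and Col4a1 averaged 9.61 ± 0.25 FPKM at P45 and 30.1 ± 1.8 FPKM at P1. The log2 differences were -1.85 ± 0.11 and -1.55 ± 0.11 (limma, adjusted p = 1.51e-08 and 8.32e-08). On a common FPKM sum 5 of 10 fell.

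Of 16 genes of VEGF, angiopoietin and Notch signalling 2 rose and 7 fell in Ctrl. Aplnr, the apelin receptor of sprouting vessels, averaged 0.0927 ± 0.016 FPKM at P45 and 6.84 ± 1.2 FPKM at P1 (log2 difference -2.83 ± 0.18, limma adjusted p = 3.03e-08), while its ligand Apln rose by 0.77 ± 0.14 (adjusted p = 0.000466). Dll4, the Notch ligand of tip cells, fell (-0.73 ± 0.12), and so did the VEGF co-receptor Nrp2 (-1.13 ± 0.20). Of 18 genes of the Wnt programme that induces the barrier 1 rose and 6 fell, among them the ligands Wnt7a (-1.30 ± 0.13) and Wnt7b (-1.30 ± 0.30), and the receptor Fzd4 rose by 0.59 ± 0.13, a call lost on a common sum and on a common median, where 0 of 18 rose and 7 fell.

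Of 12 barrier transporters 3 rose and 4 fell. Slco1a4, the organic anion transporter of brain capillaries, averaged 9.70 ± 0.92 FPKM at P45 and 0.607 ± 0.11 FPKM at P1, a rise of 2.73 ± 0.11 (limma, adjusted p = 2.07e-10), whereas the amino acid carriers Slc7a5, Slc7a1 and Slc38a5 fell (-1.10 ± 0.11, -1.06 ± 0.13 and -1.76 ± 0.28). Slc7a5 and Slc7a1 are also made by other cells of the cortex. Among 11 junction and surface genes 3 rose (F11r, Jam2 and Tjp1) and Cgn fell (-1.32 ± 0.12). Among 8 endothelial transcription factors Epas1, the hypoxia-inducible factor of endothelium, rose by 1.70 ± 0.10 and 2 fell.

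Of 13 further pericyte genes 3 rose and 3 fell in each genotype, but these were not all the same genes. Mcam rose in Ctrl (0.39 ± 0.14, limma adjusted p = 0.0466) and fell in mG-cKO (-0.53 ± 0.14, adjusted p = 0.0102). Its change with age was not called as different between genotypes. In Ctrl the transporter gene Atp13a5 rose by 1.14 ± 0.14 and Pdgfb, the endothelial ligand of Pdgfrb, by 0.91 ± 0.21, while Notch3 (-0.73 ± 0.12) and Tbx18 (-1.0 ± 0.17) fell. Of 4 smooth muscle genes 2 rose in Ctrl, Myh11 by 0.73 ± 0.14 and Acta2 by 0.78 ± 0.25. Of 7 genes of the astrocyte endfeet that wrap capillaries 5 rose and 1 fell, with Kcnj10 at 27.9 ± 2.5 FPKM at P45 and 5.0 ± 0.032 FPKM at P1.

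The makeup of the tissue moved with age too. Of 8 fibroblast and meningeal markers 6 fell in each genotype, with summed levels of 16.2 to 54.5 FPKM in mG-cKO at P45, against 39.4 to 164.5 FPKM at P1, and of at most 43.9 FPKM in Ctrl at P45, against 34.4 to 97.0 FPKM at P1. All 5 microglia markers rose, and the 5 oligodendrocyte markers summed to 412 to 1651 FPKM in Ctrl at P45, against 21.2 to 25.9 FPKM at P1. Erythroid markers summed to 53.3 to 1081 FPKM in Ctrl at P45 and 35.5 to 433 FPKM at P1. The part of these shifts in the vascular results was not tested.

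The comparison of mG-cKO with Ctrl cortex addressed whether the altered gene affects the cortex at each age. For the 10 vascular genes 0 were called at P1, P7, P14, P21 and P45, where 0.142%, 0.162%, 0.345%, 2.19% and 1.16% of all genes were called (limma without pairs, adjusted p under 0.05). At an unadjusted p under 0.05 the count was 1 at P1 (Mfsd2a) and 0 at the other 4 ages, beside 343, 322, 553, 1710 and 1152 of all genes at P1, P7, P14, P21 and P45. The median difference of the 10 was -0.03, -0.11, 0.00, 0.07 and 0.05 at P1, P7, P14, P21 and P45. The 95% intervals of single genes reached from -0.89 to 0.86 over the 5 ages, the lowest bound being that of Mfsd2a at P21 and the highest that of Pecam1 at P45.

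**Figure D4:**
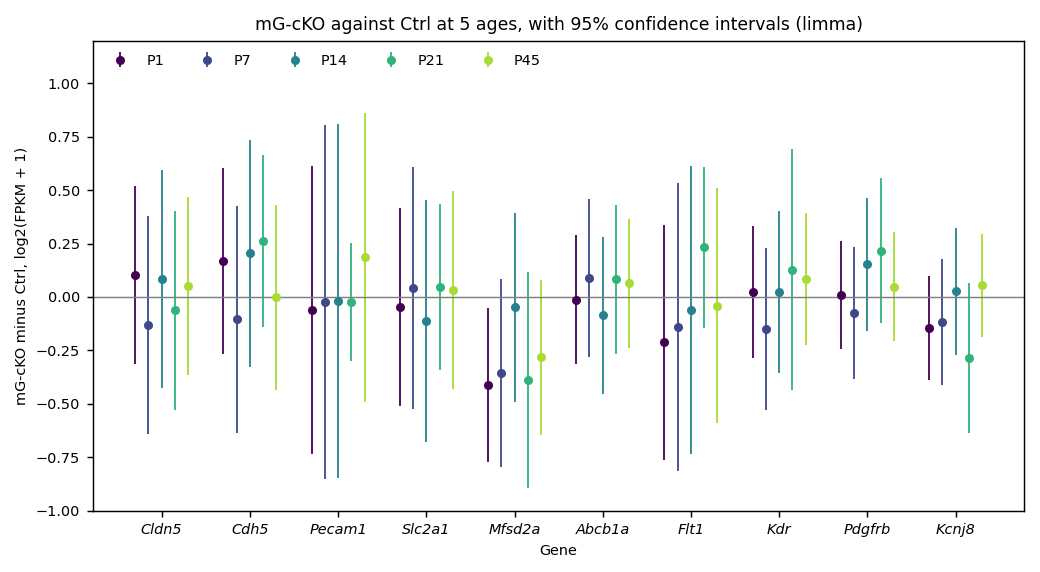
mG-cKO minus Ctrl difference in log2(FPKM + 1) with 95% intervals for each gene at 5 ages; P21 comes from its own table. Mfsd2a lies below 0 at every age, from -0.41 at P1 to -0.05 at P14, and only its P1 interval excludes 0.

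At P1, P7, P21 and P45 Mfsd2a had the most negative mG-cKO minus Ctrl difference of the 10 genes. At P1 it had 8.9, 7.6 and 8.77 FPKM in mG-cKO, against 10.6, 10.8 and 13.4 FPKM in Ctrl, and at P7 10.7 and 12.5 FPKM in mG-cKO, against 13.7 and 16.5 FPKM in Ctrl. Neither pair of groups overlapped, mG-cKO lying below Ctrl without overlap for 2.25% of all genes at P1 and 22.4% at P7. At P14 it had 16.7 and 15.1 FPKM in mG-cKO, against 15.6 and 17.4 FPKM in Ctrl, and the groups overlapped.

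At P21 Mfsd2a had 8.44, 10.4 and 9.90 FPKM in mG-cKO, against 12.4, 9.84 and 17.1 FPKM in Ctrl, and at P45 5.19, 5.27 and 8.42 FPKM in mG-cKO, against 6.80, 7.07 and 9.46 FPKM in Ctrl. In both cases the groups overlapped. The log2 differences were -0.41 ± 0.17 at P1, -0.36 ± 0.21 at P7, -0.05 ± 0.21 at P14, -0.39 ± 0.24 at P21 and -0.28 ± 0.17 at P45 (limma, adjusted p = 0.678 at P21 and 1.0 at the other ages). None passed in this fit, which did not use pairs.

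Same-numbered libraries deviated together at P1, P21 and P45, and Mfsd2a was lower in mG-cKO in 8 of 9 such pairs. With the replicate number as a block it was called at P1 (-0.41 ± 0.08, limma adjusted p = 0.0473) and at P45 (-0.28 ± 0.08, adjusted p = 0.0381), but not at P21 (adjusted p = 0.563). Under that fit 0.917% of all genes were called at P1 and 13.9% at P45. At P45 it was also called without replicate 3 (-0.35, adjusted p = 0.0474), where 11.9% of all genes were called. No other member was called under the block at any of the 5 ages.

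The other 9 genes were counted in the same way. In same-numbered pairs Kcnj8 was lower in mG-cKO in 7 of 9, and the remaining 8 genes in 3 to 5 of 9. Cldn5 differed by 0.10 at P1 and 0.05 at P45, Slc2a1 by -0.05 and 0.03, and Kdr by 0.02 and 0.09. At P7 6 of 10 genes had both mG-cKO libraries below both Ctrl libraries (22.4% of all genes) and Abcb1a had both above (20% of all genes). At P14 1 gene lay below and 3 above, where 28.7% and 23.5% of all genes did.

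A few genes of the other vascular lists and of the endfoot list passed the genotype test. Mcam, the adhesion molecule CD146 of pericytes and smooth muscle, averaged 2.75 ± 0.41 FPKM in mG-cKO and 8.71 ± 0.90 FPKM in Ctrl at P21 (log2 difference -1.37 ± 0.21, limma adjusted p = 0.00137), and 2.48 ± 0.37 FPKM in mG-cKO and 6.42 ± 1.1 FPKM in Ctrl at P45 (-1.09 ± 0.14, adjusted p = 0.00068). It was the 1 gene called among 13 pericyte genes at each of these ages, where 2.19% of all genes were called at P21 and 1.16% at P45. The 13 genes summed to 94.3 to 105.4 FPKM in mG-cKO and 82.7 to 97.0 FPKM in Ctrl at P21. At P45 they summed to 74.1 to 101.6 FPKM in mG-cKO and 74.5 to 99.3 FPKM in Ctrl. Which cells the Mcam difference comes from was not tested. Of 12 barrier transporters Slc7a1 was higher at P21 (1.14 ± 0.25, adjusted p = 0.0262), and Slc7a1 and Slc7a5 at P45 (0.89 ± 0.13 and 0.82 ± 0.11, adjusted p = 0.00221 and 0.000745). As said above, both are also made by other cells of the cortex. The angiopoietin gene Angpt1 was higher at P45 (0.57 ± 0.12, adjusted p = 0.0325), and so was the endfoot water channel Aqp4 (0.56 ± 0.11, adjusted p = 0.0157).

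Beside these values, 2 of 5 oligodendrocyte markers were lower in mG-cKO at P14, where the 5 summed to 132.2 to 147.7 FPKM in mG-cKO, against 524.7 to 584.2 FPKM in Ctrl. At P21 all 5 of these markers were lower in mG-cKO, summing to 226 to 393 FPKM in mG-cKO, against 2167 to 3531 FPKM in Ctrl, and 4 of 5 at P45. The part of that difference in the vascular values was not tested. Fibroblast markers summed to 58.3 to 66.6 FPKM in mG-cKO at P21, against 35.0 to 48.3 FPKM in Ctrl.

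In the P21 table the 10 genes ranged by 1.53 times (Pecam1) to 5.05 times (Kdr) between the lowest and the highest of 15 libraries. The mG-cKD comparison with Ctrl called 0 of 10 genes (0% of all genes, 231 of 16420 at an unadjusted p under 0.05), with differences of -0.25 to 0.18 and intervals from -0.76 to 0.61. The comparison of mG-cKO with mG-cKD called 0 of 10 as well (1.53% of all genes), with differences of -0.16 to 0.20. Of the other vascular lists it called Mcam as lower in mG-cKO (-1.133 ± 0.205, limma adjusted p = 0.00835). The barrier transporter Slc3a2 was called as higher (0.665 ± 0.141, adjusted p = 0.0257). Mfsd2a averaged 9.57 ± 1.0 FPKM in mG-cKO, 10.7 ± 1.7 FPKM in mG-cKD and 13.1 ± 3.7 FPKM in Ctrl (SD, n = 3 each), within their spread.

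RTI with mG-cKO against mG-cKO alone called 0 of 10 genes (0.00609% of all genes, 1 of 16420, limma), and 9 of 10 had negative differences, with a median of -0.15 beside 0.00 over all genes. Slc2a1 had 25.3, 24.4 and 28.1 FPKM with RTI, against 28.4, 42.2 and 32.0 FPKM without (-0.37 ± 0.18, adjusted p = 0.962). Cdh5 had 2.65, 3.99 and 3.35 FPKM with RTI, against 4.0, 4.06 and 6.08 FPKM without (-0.39 ± 0.19, adjusted p = 0.962). In both the RTI libraries lay below all libraries without it, as they did for Pecam1 and Flt1, which makes 4 of 10 genes, where 5.19% of all genes lay below without overlap. Pdgfrb differed by -0.34 ± 0.16, the 1 gene of the 10 with an unadjusted p under 0.05 (adjusted p = 0.962).

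**Figure D5:**
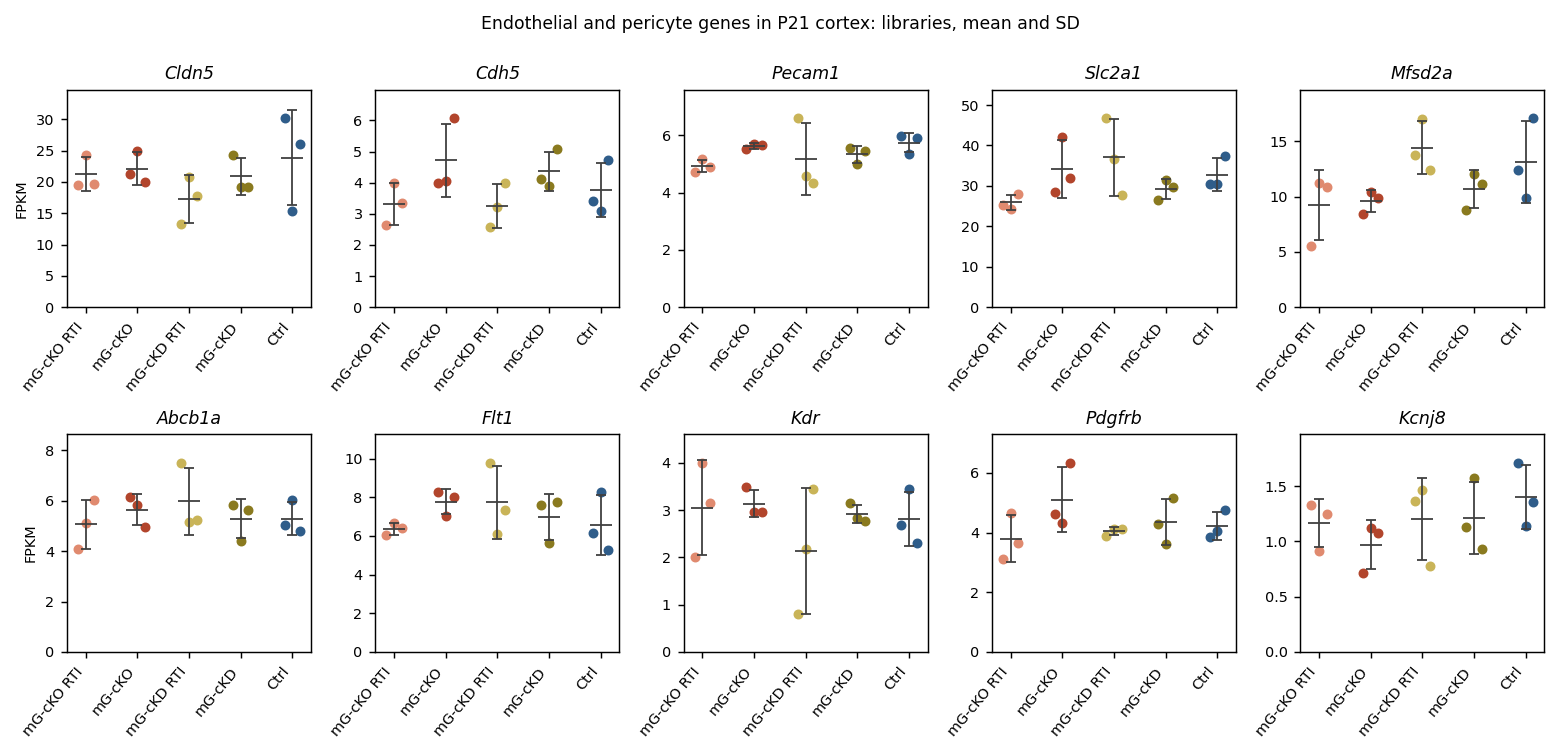
Level of each gene (FPKM, linear axes from 0) in the 15 libraries of P21 cortex, with group mean and SD (n = 3 each). Replicate 1 of mG-cKD with RTI has the lowest Kdr value, 0.793 FPKM, and mG-cKO with RTI has Slc2a1 values of 24.4 to 28.1 FPKM.

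In mG-cKD cortex RTI called 0 of 10 genes (0% of all genes, 353 of 16420 at an unadjusted p under 0.05). Mfsd2a had 13.8, 17.1 and 12.4 FPKM with RTI, against 8.76, 12.1 and 11.2 FPKM without, with no overlap (3.89% of all genes lay above in this way), a difference of 0.40 ± 0.24 (limma, adjusted p = 1.0). The effect of RTI was called as different between mG-cKO and mG-cKD for 0 of 10 genes (0% of all genes called, 245 at an unadjusted p under 0.05), and the largest difference, mG-cKO minus mG-cKD, was that of Slc2a1 (-0.67 ± 0.26, 95% interval -1.22 to -0.12, adjusted p = 1.0). The comparison of mG-cKO with RTI against Ctrl also called 0 of 10 (2.3% of all genes), with Mfsd2a at 5.56, 11.3 and 10.9 FPKM, against 12.4, 9.84 and 17.1 FPKM in Ctrl (-0.49 ± 0.24, adjusted p = 0.387). Of the other vascular lists it called Mcam as lower (-1.422 ± 0.205, limma adjusted p = 0.00155) and Angpt1 as higher (0.792 ± 0.172, adjusted p = 0.0256). These comparisons share their mG-cKO, mG-cKD and Ctrl libraries. In P21 libraries the erythroid markers summed to 22.9 to 678 FPKM and the choroid plexus markers to 2.73 to 527 FPKM, and their part in the values was not tested.

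At P1, 0 of 6 genes were called between VPA and CT cortex (0% of the 11264 genes tested, 2644 at an unadjusted p under 0.05). Mfsd2a had 12, 11.4 and 13.5 FPKM in VPA, against 9.48, 10.3 and 11.1 FPKM in CT, without overlap, as 21.5% of all genes lay above (0.24 ± 0.16, limma adjusted p = 0.401). On a common FPKM sum its difference was -0.06. Flt1 had 4.39, 3.62 and 2.34 FPKM in VPA, against 2.09, 2.52 and 2.05 FPKM in CT (0.44 ± 0.22, adjusted p = 0.27).

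Kcnj8 had 4.12, 3.78 and 2.47 FPKM in VPA, against 1.97, 2.84 and 3.04 FPKM in CT (0.29 ± 0.23, limma adjusted p = 0.439), and the groups overlapped. Cdh5 (-0.23 ± 0.17), Abcb1a (-0.24 ± 0.18) and Pecam1 (0.02 ± 0.28) overlapped as well. VPA replicate 3 stood apart by its FPKM sum, 150149, against 66557 to 72783 in the other CT and VPA libraries. Its erythroid markers summed to 439 FPKM, against 16.2 to 26.2 FPKM in CT. Without VPA replicate 3, 236 genes were called in all and 0 of the 6, Flt1 coming nearest (0.64 ± 0.14, limma adjusted p = 0.0646). This table listed no row for 61.0% of the 8508 protein-coding genes that had at least 5 FPKM in P1 Ctrl cortex.

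The genes closest to the vascular set were ranked by the correlation of log2(FPKM + 1) with the mean of the 10 standardised genes. Over the 20 libraries of the age table they were Selenow and Hsbp1 (r = 0.94), then Esam, an endothelial adhesion molecule, Pccb and Rnft2 (r = 0.93). Of the 50 nearest genes 6 were on the vascular lists, which hold 86 of the 12990 ranked genes. The mean itself followed Mfsd2a (r = 0.86) and Kdr (r = 0.77) and not Abcb1a (r = -0.32), Flt1 (r = -0.18) or Slc2a1 (r = -0.14), which ran the other way with age. Over the 15 P21 libraries the nearest were Mapk4 (r = 0.91), Acin1, Arhgap39, Lsr and Sh3bp2 (r = 0.83 to 0.86), with 3 of 50 on the vascular lists. These correlations share library kind and age and are descriptions.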

How the data were processed

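RNA was taken from mouse cortex with TRIzol and made into libraries with a NEB Next Ultra kit, per the labels' protocols. The authors deposited FPKM per gene. Per the submitters' processing notes the build named is mm10 and the tools are featureCounts 2.0.4, STAR 2.5.3a and Trim Galore 0.6.5; neither strand nor poly(A) selection is given in the sources used here. Gene positions and merged exon lengths came from GENCODE M21 (GRCm38), and FPKM times exon length was searched for steps of 1 read among values of up to 20 reads. Each table was fitted separately on log2(FPKM + 1) over those genes averaging 0.5 FPKM or more, with 1 mean per group, using limma 3.58.1 (trend, robust; statmod 1.5.0) in R 4.3.3, and the code was tested on simulated data. Plots were drawn with matplotlib 3.10.9 and tables handled with pandas 2.3.3 and numpy 2.4.6 in Python 3.11.15. Benjamini-Hochberg adjusted p-values cover all genes of a table, and errors of log2 differences are SE.

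All 10 genes are named in every comparison. From each other list up to 4 called genes could be named, smallest adjusted p first, and Mcam was added for P45 against P1. Genes and lists were chosen with earlier results of these data known. The labels do not say that replicates are separate animals, so the spread behind each p-value may be technical. Replicate 3 at P7 and P14 and the NPC samples were not analysed here.

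Same-numbered libraries' deviations from their group means correlated above 0.1 in every pair for mG-cKO against Ctrl at P1 (0.71 to 0.942), P45 (0.871 to 0.969) and P21 (0.125 to 0.698), for mG-cKO against mG-cKD (0.331 to 0.693) and for P45 against P1 in Ctrl (0.556 to 0.665) and mG-cKO (0.557 to 0.672). These numbers were treated as pairs only in the counts of same-numbered libraries and in the fit with the replicate number as a block. The main fit had 1 mean per group and no pairs. At P1 and P45 number 3 is also the library with the higher FPKM sum, and pairing and library kind cannot be told apart there.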

Additional observations from a re-analysis of the deposited data

Results flagged for a closer look

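At P7 and P14 every mG-cKO library lay on one side of every Ctrl library for 2 genes, and the side changed between the ages, as it did for 1513 of 19733 genes (7.67%). Cldn5 differed by -0.133 at P7, with 45.1 and 46.5 FPKM in mG-cKO, against 48.3 and 52.5 FPKM in Ctrl, and by 0.084 at P14, with 50.1 and 47.34 FPKM in mG-cKO, against 44.5 and 47.31 FPKM in Ctrl. Pdgfrb differed by -0.076 at P7, with 6.44 and 6.68 FPKM in mG-cKO, against 6.93 and 7.01 FPKM in Ctrl, and by 0.154 at P14, with 7.08 and 7.22 FPKM in mG-cKO, against 6.11 and 6.54 FPKM in Ctrl. The change between the ages was not tested, and none of these differences passed limma's test at its own age (adjusted p = 1.0, n = 2 each).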

How the results depend on the processing

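No called difference changed sign under any alternative. Of 1967 alternative values for differences that were not called, 155 had the other sign. The counts of genes called out of 10 that moved by over 1.5 times follow, each with the share of all genes called in that fit. The replicate block called 1 gene between mG-cKO and Ctrl at P1 (0.917%), and 1 at P45 (13.9%), in place of 0, 2 for P7 against P1 in place of 0 (27.3%), 4 for P14 against P7 in place of 1 (29.0%) and 7 for P45 against P14 in place of 4 (52.9%); the last 3 comparisons did not meet the pairing rule. Leaving out the libraries with high FPKM sums called 1 gene for mG-cKO against Ctrl at P45 (11.9%), 3 for P7 against P1 (39.8%), 4 for P14 against P7 (44.6%) and 7 for P45 against P14 (67.2%). For P14 against P7 the count was 0 with a pseudocount of 0.1, with no filter on low values or on a common median, and 5 when only the groups compared were fitted (41.8%). Fitting only the groups compared called 0 genes for P45 against P14 (0.00507%), and 4 in each genotype for P45 against P1 in place of 8 in Ctrl (16.9%) and 7 in mG-cKO (14.2%), with Cdh5, Slc2a1 and Kcnj8 lost in both. Leaving out 1 library gave 0 to 0 for P14 against P7, 1 to 4 for P45 against P14, 6 to 8 for P45 against P1 in Ctrl and 7 to 8 in mG-cKO. Smaller moves were 9 for P45 against P1 in each genotype and 6 for P45 against P14 on a common median, 5 for P45 against P14 on a common sum, 8 for P45 against P1 in mG-cKO under the block, and 9 in Ctrl and 8 in mG-cKO for P45 against P1 without the high sums (77.9% and 77.1%). The causes were not tested. On a common sum Abcb1a was lost and Slc2a1 gained between P14 and P7. The depth of the P21 libraries is unknown, and Kcnj8, with 41 reads in its lowest stepped library, is the least precisely counted of the 10.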
